A study of Mus musculus with 8 samples.

Results

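DEAD and DEAH box proteins are RNA helicases that use ATP to unwind short RNA duplexes or to strip proteins from RNA, and almost every step in the life of an RNA has its own members, in splicing, ribosome assembly, nuclear export, translation and decay. Most are housekeeping proteins that are needed in every cell. A small number have particular roles in germ cells. There *Ddx4* (the mouse homologue of fly vasa) works in the germ granules and in the piRNA pathway. *Ddx25* (the gonadotropin-regulated testicular helicase) serves the export and storage of messages for the haploid phase. Both are called germ cell members here for these roles, and their expression in other testis cells was not examined. The helicase genes were taken by symbol, as every gene whose name begins with Ddx or Dhx and a digit, which gave 44 of the 18097 genes in the gene table. Of these, 30 had a detection p-value under 0.01 on at least 4 of the 8 arrays and were analysed (the p-value tests a signal against that of negative control beads), namely *Ddx25* and 29 general members.

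Total RNA from whole testis of single males at 17.5 dpp was hybridized to single-colour Illumina BeadChips, 1 array per animal, and the values are quantile normalized signals on the log2 scale. XEOSry males were compared with XEZ2OSry males, with 4 animals each. Both genotypes were MF1 mice of XO karyotype, with the transgenes *Sry* and *Eif2s3y*. The Y chromosome was otherwise missing in XEOSry. XEZ2OSry males carried in addition a transgene for *Zfy2*, so that the comparison asks how testis transcripts differ when *Zfy* genes are lacking. The univalent X chromosome is shared by both genotypes. The animal identifiers begin alike in all XEOSry animals and differently in XEZ2OSry, and the labels do not say what the identifiers stand for.

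*Zfy2* itself was not detected on any array, with log2 signals of 6.05 to 6.20 in XEOSry and 6.15 to 6.19 in XEZ2OSry, so that its row does not check the labels. The row of *Zfy1*, a near copy that neither genotype carries, was also below detection, at 6.13 to 6.28 in XEOSry and 6.50 to 6.77 in XEZ2OSry, without overlap. *Eif2s3y*, which both genotypes carry, was detected on all 8 arrays. Between 8132 and 8434 genes were detected per XEOSry array and between 8063 and 8282 per XEZ2OSry array. Markers of the testis were present, with *Sox9* of Sertoli cells and *Cyp17a1* of Leydig cells detected on all 8 arrays.

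The promoters of 3 genes are shown as a description, and no link between their motifs and the signals was tested. The genes were picked by their values. *Ddx25* and *Ddx19b* had nearly the same order of animals within each genotype, described with their values, whereas *Ddx19a*, which lies beside *Ddx19b* on chromosome 8, did not. How many of all genes had that order was not counted. Each line gives the 250 bases upstream of the annotated start, 5′ to 3′ on the strand of the gene, from RefSeq (GRCm38.p6), at chr9:35558471-35558720, chr8:111031752-111032001 and chr8:110997824-110998073, all on the minus strand. Capitals mark matches on either strand to CCAAT or to the cAMP response element TGACGTCA, the only motifs with a match here.
Ddx25: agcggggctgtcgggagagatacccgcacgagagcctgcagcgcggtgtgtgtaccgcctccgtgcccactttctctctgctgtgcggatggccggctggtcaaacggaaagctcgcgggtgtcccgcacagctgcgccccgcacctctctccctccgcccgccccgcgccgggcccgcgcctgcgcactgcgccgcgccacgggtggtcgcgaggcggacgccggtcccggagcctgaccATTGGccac
Ddx19b: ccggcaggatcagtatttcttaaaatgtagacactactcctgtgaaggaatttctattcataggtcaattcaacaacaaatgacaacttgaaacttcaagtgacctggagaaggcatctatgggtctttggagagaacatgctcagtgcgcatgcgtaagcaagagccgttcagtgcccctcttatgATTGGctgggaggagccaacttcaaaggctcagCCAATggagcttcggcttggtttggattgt
Ddx19a: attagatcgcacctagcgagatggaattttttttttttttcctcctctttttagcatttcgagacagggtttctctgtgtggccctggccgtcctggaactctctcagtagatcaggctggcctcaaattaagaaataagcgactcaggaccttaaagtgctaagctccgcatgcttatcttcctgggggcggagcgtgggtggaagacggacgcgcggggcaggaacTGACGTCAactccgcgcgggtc
The *Ddx25* stretch held 1 CCAAT match at its 3′ end and had a GC content of 73.6%. The *Ddx19b* stretch, taken at the farthest upstream of 2 annotated starts, held 2 CCAAT matches and had a GC content of 46.0%. The *Ddx19a* stretch held none, but 1 cAMP response element, with a GC content of 52.4%. Of the 50 stretches of the helicase genes, which cover 40 of the 44 members, 19 held CCAAT and 5 held TGACGTCA, against 33.8% and 1.55% of all 32851 promoter stretches of the same length. The core CAACNG, bound by MYB proteins, was searched as well and had no match in these 3 stretches, while 10 of the 50 helicase stretches and 29.3% of all stretches held it.

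The helicase genes as a family differed little between the genotypes. The median difference, XEOSry minus XEZ2OSry, was 0.01 on the log2 scale over the 30 analysed genes, with quartiles of -0.10 and 0.09, against a median of 0.07 with quartiles of -0.11 and 0.22 over all 8324 genes tested. The mean was higher in XEOSry for 15 helicase genes and lower for 15, where 62.0% of all genes tested were higher and 38.0% lower. For 25 of the 30 the difference was within 0.25 of zero, a band that also holds both quartiles of all genes tested.

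No helicase gene passed an adjusted p of 0.05 in limma (Benjamini-Hochberg over 8324 genes), where 0.0240% of all genes tested passed as higher and 0.0360% as lower, that is 2 and 3 genes. At an unadjusted p under 0.05, 2 helicase genes were higher (*Dhx35* and *Dhx36*), or 6.67% of the 30 beside 12.9% of all genes, and 4 were lower (*Ddx19b*, *Ddx25*, *Dhx30* and *Dhx58*), or 13.3% beside 12.0%. The arrays of the genotypes did not overlap for 1 helicase gene that was higher, *Dhx36*, and for none that was lower, beside 6.34% and 4.58% of all genes. A mean difference of more than 1.5-fold was found for no higher helicase gene and for 3 lower ones (*Ddx19b*, *Ddx25* and *Dhx58*), that is 3 of the 30, beside 0.973% and 6.63% of all genes. When 1 animal at a time was left out, 0 to 3 helicase genes were higher and 2 to 5 lower at an unadjusted p under 0.05. The shares of all genes at that level were not counted without single animals, so these counts have no background beside them. The count of higher genes was 0 without XEOSry replicate 2, XEZ2OSry replicate 3 or XEZ2OSry replicate 4, 1 without XEOSry replicate 3, XEOSry replicate 4 or XEZ2OSry replicate 2, and 3 without XEZ2OSry replicate 1. That of lower genes was 2 without XEOSry replicate 2 or XEZ2OSry replicate 3, and 5 without XEZ2OSry replicate 4. By adjusted p, *Dhx30* passed without XEOSry replicate 4 (-0.67, adjusted p = 0.0434), where 396 genes passed in all, and *Dhx58* passed without XEZ2OSry replicate 4 (-1.01, adjusted p = 0.0393), where 519 genes passed in all.

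**Figure D1:**
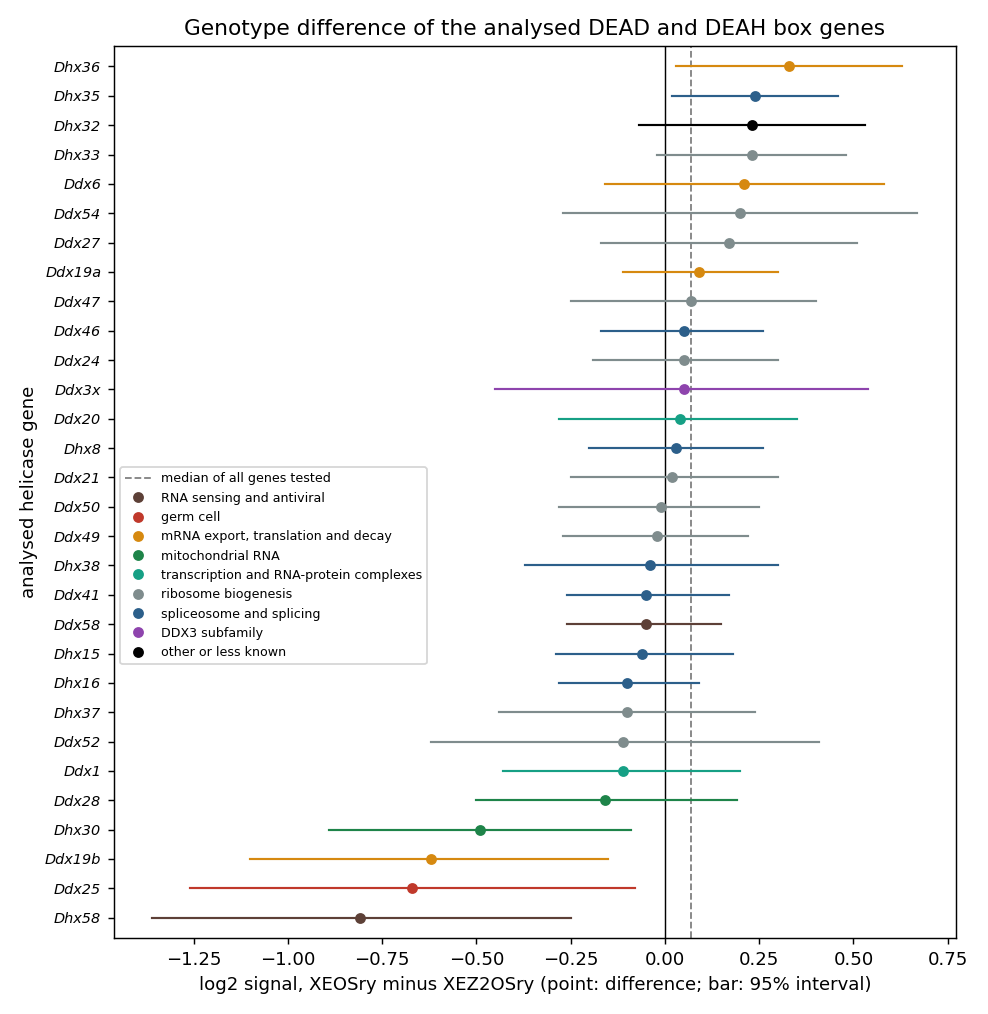
Genotype difference of the 30 analysed helicase genes, ordered by size. The horizontal axis is the log2 signal of XEOSry minus XEZ2OSry, points are limma differences, bars their 95% intervals, colours the roles, and the dashed line the median of all genes tested (0.07). Most genes sit close to the line. Intervals stop short of zero for Dhx58, Ddx25, Ddx19b and Dhx30 on the left, and for Dhx36 and Dhx35 on the right.

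Of the germ cell members, only *Ddx25* (chr9:35541848-35558470) could be analysed. Its log2 signals were 12.97, 12.20, 12.29 and 13.12 in XEOSry, against 13.48, 13.73, 13.31 and 12.75 in XEZ2OSry. All 4 XEOSry animals lay below the XEZ2OSry mean, but the genotypes overlapped, because XEZ2OSry replicate 4 was lower than XEOSry replicates 1 and 4. The means were 12.65 ± 0.469 in XEOSry and 13.32 ± 0.414 in XEZ2OSry (SD, n = 4 each), a difference of -0.67 (SE 0.263, 95% interval -1.26 to -0.08, adjusted p = 0.167 from limma), or 0.628 times the XEZ2OSry signal. The pooled SD of *Ddx25*, 0.442, was the highest of the 30 helicase genes, whose median was 0.200.

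*Ddx4* (chr13:112598333-112652633) was detected on none of the arrays (its detection p-values ran from 0.0102 to 0.412) and so fell outside the detection rule. Its log2 signals were 7.67, 7.91, 7.64 and 7.97 in XEOSry, against 8.07, 8.72, 7.94 and 8.29 in XEZ2OSry. In 3 of the XEOSry animals the signal was below that of every XEZ2OSry animal, and replicate 4 lay just above XEZ2OSry replicate 3. In a fit of all 18097 genes without a detection filter the adjusted p of *Ddx4* was 0.233, and no fold change is given for a gene below the detection rule. Beside -0.67 for *Ddx25*, the median difference of the 29 general helicase genes was 0.02, with a range of -0.81 to 0.33. As an average per array, the general members stood at 9.03, 9.05, 9.07 and 9.16 in XEOSry, against 9.14, 9.14, 9.07 and 9.05 in XEZ2OSry. An average over 29 genes varies less than its members do, whose pooled SDs had a median of 0.194 and reached 0.411.

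Germ cell partners were compared alongside. Of 15 listed genes whose proteins share the germ granules or the piRNA pathway with DDX4 and DDX25, 7 were analysed, none at an adjusted p under 0.05. At an unadjusted p under 0.05, 4 were lower and none higher, beside 12.0% and 12.9% of all genes tested. The median difference was -0.64, with 5 lower by mean and 2 higher, *Asz1* (0.08) and *Rnf17* (0.06). *Tdrd6*, a tudor protein of the chromatoid body, was the farthest apart, with signals of 8.64, 6.68, 6.66 and 9.50 in XEOSry, against 11.65, 12.15, 11.96 and 10.63 in XEZ2OSry, a difference of -3.73 (adjusted p = 0.0798). *Piwil1*, the piRNA-binding protein of pachytene cells, differed by -1.48 (adjusted p = 0.130). The list average ran from 9.27 to 10.22 in XEOSry and from 10.28 to 10.78 in XEZ2OSry, with no overlap. Both genes also stand in the list of pachytene markers.

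Pachytene spermatocyte markers followed the same animals as *Ddx25*. Of 30 listed genes 19 were analysed, with a median difference of -1.09, and none passed the adjusted threshold. At an unadjusted p under 0.05, 15 of the 19 were lower and none higher, beside 12.0% and 12.9% of all genes tested. The average of the 19 was 10.09, 8.85, 8.97 and 10.36 in XEOSry, against 10.99, 11.38, 10.97 and 10.23 in XEZ2OSry. Within XEOSry, replicates 1 and 4 were high and replicates 2 and 3 low, and within XEZ2OSry replicate 2 was highest and replicate 4 lowest, for the list as for *Ddx25*. Of the listed markers, 6 were detected on no array, among them *Sycp3*, a defining component of the synaptonemal complex, and *Sycp1* differed by only 0.02. *Tcte3*, another of the 6, read 10.95 to 12.71 in XEOSry and 12.58 to 13.62 in XEZ2OSry. A marker not detected was thus not always one of low signal. The part of pachytene cells in the differences of *Ddx25* and *Ddx19b* was not tested. In whole testis, fewer cells of a type and less RNA per cell cannot be told apart.

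Other cell types gave smaller differences. Sertoli cell markers, 11 of 18 analysed, had a median difference of 0.23, with list averages of 10.49 to 10.93 in XEOSry and 9.93 to 10.75 in XEZ2OSry, while *Gata4* was not detected, and 1 gene, *Defb36*, was higher at an unadjusted p under 0.05 (0.62, adjusted p = 0.121). Spermatogonial markers, 9 of 20 analysed, had a median difference of 0.20, with averages of 8.39 to 8.74 in XEOSry and 8.15 to 8.75 in XEZ2OSry. Against that direction, *Id4* differed by -0.89 without overlap (adjusted p = 0.117), and no other gene of the 9 had an unadjusted p under 0.05. Leydig cell markers, 5 of 9 analysed and without *Star*, which was not detected, had a median of 0.02, at 8.27 to 8.72 in XEOSry and 8.22 to 8.71 in XEZ2OSry. Those of peritubular muscle and macrophages, 8 of 12 analysed, had a median of 0.29, at 8.39 to 8.76 in XEOSry and 7.93 to 8.64 in XEZ2OSry. In the Leydig list and in that of peritubular muscle and macrophages no gene had an unadjusted p under 0.05. At that level 12.9% of all genes tested were higher and 12.0% lower. The ranges of all these list averages overlapped between the genotypes, and the part of these cells in the helicase values was not tested.

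**Figure D2:**
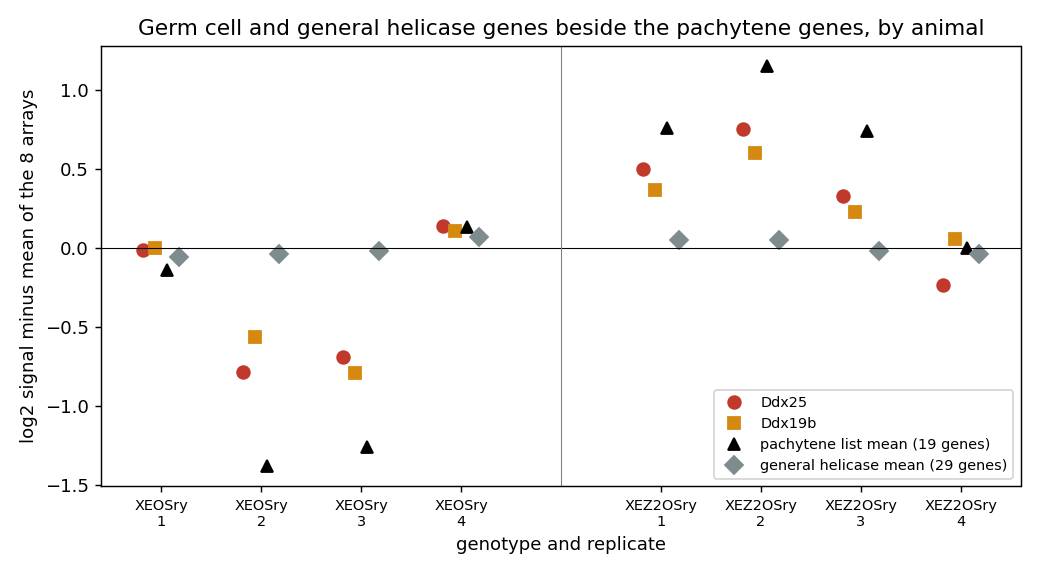
Deviation of single animals from the mean of the 8 arrays (vertical axis, log2 signal), for Ddx25, Ddx19b, the average of 19 pachytene marker genes and the average of the 29 general helicase genes; XEOSry replicates are on the left and XEZ2OSry replicates on the right. The general helicase average, over 29 genes that vary with a median pooled SD of 0.194, stays near zero in all 8 animals, and the other 3 measures are low in XEOSry replicates 2 and 3 and high in XEZ2OSry replicates 1 to 3.

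Export, translation and decay factors included both the highest member and 1 of the lowest. *Ddx19b* (chr8:111003186-111031751) and *Ddx19a* (chr8:110974991-110997823) encode close homologues of yeast Dbp5, which releases messages on the cytoplasmic side of the nuclear pore. *Ddx19b* had signals of 9.52, 8.96, 8.73 and 9.63 in XEOSry, against 9.89, 10.12, 9.75 and 9.58 in XEZ2OSry. Below every XEZ2OSry animal lay 3 of the XEOSry animals, and replicate 4 lay between XEZ2OSry replicates 4 and 3. The difference was -0.62 (SE 0.210, 95% interval -1.10 to -0.15, adjusted p = 0.133 from limma). The animals of *Ddx19b* were ordered nearly as those of *Ddx25*, with XEOSry replicates 1 and 4 high and 2 and 3 low. *Ddx19a* had signals of 6.93, 7.0, 7.02 and 6.89 in XEOSry, against 6.80, 6.74, 6.95 and 6.98 in XEZ2OSry. These genotypes overlapped, with a difference of 0.09 (95% interval -0.11 to 0.30, adjusted p = 0.526). The within-animal difference of the pair, *Ddx19b* minus *Ddx19a*, was 0.72 lower in XEOSry than in XEZ2OSry by their means, a value for which no test was made.

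*Dhx36*, on chromosome 3, encodes a helicase that resolves G-quadruplexes in RNA and DNA. Its signals were 10.77, 10.93, 10.71 and 10.83 in XEOSry, against 10.69, 10.67, 10.15 and 10.39 in XEZ2OSry. It was the only analysed helicase gene with no overlap, although the gap between XEOSry replicate 3 and XEZ2OSry replicate 1 was narrow. The difference was 0.33 (SE 0.132, 95% interval 0.03 to 0.63), with an adjusted p of 0.170 from limma and an exact permutation p of 0.0286 (two-sided, unadjusted), the smallest that 4 against 4 animals allow. *Ddx6*, the P-body helicase of translational repression and decapping, differed by 0.21 (adjusted p = 0.430), with means of 7.92 ± 0.206 in XEOSry and 7.71 ± 0.297 in XEZ2OSry (SD, n = 4 each). The median over the 4 analysed genes of this role was 0.15.

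Both RNA sensors had low signals in XEOSry, *Dhx58* at 6.59 to 7.04 and *Ddx58* at 6.51 to 6.70. For signals this low the size of a difference is uncertain. *Dhx58* encodes LGP2, a regulator of antiviral RNA sensing, and *Ddx58* encodes the sensor RIG-I. *Dhx58* was detected on 3 XEOSry and 4 XEZ2OSry arrays, with signals of 7.04, 6.65, 6.59 and 7.04 in XEOSry, against 7.74, 8.29, 7.51 and 7.02 in XEZ2OSry. Its XEOSry replicates 1 and 4 were level with XEZ2OSry replicate 4, and the other XEZ2OSry animals were higher. The difference of -0.81 (SE 0.246, 95% interval -1.36 to -0.25, adjusted p = 0.125 from limma) was the largest of the 30 genes in size. Here too XEOSry replicates 2 and 3 were lowest and XEZ2OSry replicate 2 highest. *Ddx58*, detected on 2 arrays of each genotype, at 6.51 to 6.70 in XEOSry and 6.54 to 6.78 in XEZ2OSry, differed by -0.05 (95% interval -0.26 to 0.15), and whether the sensors differ from each other was not tested.

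*Dhx30* and *Ddx28*, both needed for the assembly of mitochondrial ribosomes, averaged below XEZ2OSry in XEOSry. *Dhx30* had signals of 10.93, 10.81, 11.17 and 11.67 in XEOSry, against 11.60, 11.67, 11.78 and 11.49 in XEZ2OSry. XEOSry replicate 4 stood apart from the other XEOSry animals and lay within the range of XEZ2OSry. The difference was -0.49 (SE 0.177, adjusted p = 0.146 from limma) and became -0.67 without XEOSry replicate 4. *Ddx28* had means of 7.88 ± 0.161 in XEOSry and 8.04 ± 0.290 in XEZ2OSry (SD, n = 4 each), a difference of -0.16 (adjusted p = 0.533).

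**Figure D3:**
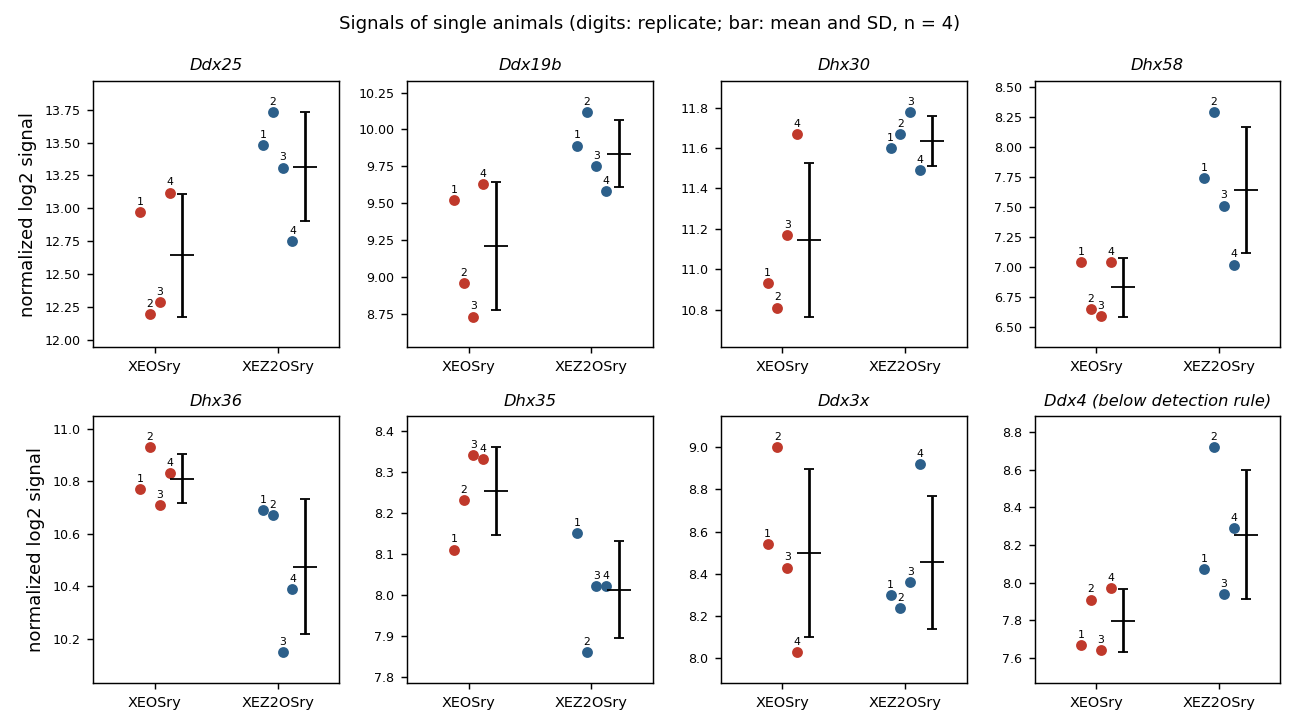
Normalized log2 signals (vertical axes, each panel with its own range) of single animals for 8 helicase genes, XEOSry in red on the left and XEZ2OSry in blue on the right; digits name the replicates and bars give mean and SD (n = 4). Dhx36 is the only gene shown without overlap between the genotypes, and Ddx4 was below the detection rule on all 8 arrays.

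Splicing helicases differed by small amounts. Of 9 members 7 were analysed, 3 higher and 4 lower by mean, with a median of -0.04 and a range of -0.10 to 0.24. *Dhx35*, found in the spliceosome, was at the upper end, with signals of 8.11, 8.23, 8.34 and 8.33 in XEOSry, against 8.15, 7.86, 8.02 and 8.02 in XEZ2OSry. All XEOSry animals were above the XEZ2OSry mean, and only XEZ2OSry replicate 1 reached into their range. Its difference was 0.24 (SE 0.0968, adjusted p = 0.173 from limma). *Dhx15*, the homologue of the yeast disassembly factor Prp43, averaged 10.63 ± 0.0484 in XEOSry and 10.68 ± 0.184 in XEZ2OSry (SD, n = 4 each), a difference of -0.06. The homologues of the yeast remodelling factors Prp2 (*Dhx16*), Prp16 (*Dhx38*), Prp22 (*Dhx8*) and Prp5 (*Ddx46*) differed by -0.10, -0.04, 0.03 and 0.05, and *Ddx41* by -0.05.

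Ribosome biogenesis had the most members, 10 analysed of 12, and showed no common direction, with 6 higher and 4 lower by mean, none at an unadjusted p under 0.05 and a median of 0.04. The range was -0.11 to 0.23. *Dhx33*, a nucleolar helicase of rRNA synthesis, was the highest, with signals of 8.68, 8.85, 8.90 and 8.54 in XEOSry, against 8.52, 8.58, 8.34 and 8.60 in XEZ2OSry. Its XEOSry animals were all above the XEZ2OSry mean, and 3 of them were above every XEZ2OSry animal, with a difference of 0.23 (95% interval -0.02 to 0.48, adjusted p = 0.231). *Ddx54* and *Ddx27*, both of the nucleolus, differed by 0.20 (adjusted p = 0.566) and 0.17 (adjusted p = 0.484). *Dhx37* and *Ddx52*, whose yeast homologues act in small subunit assembly, differed by -0.10 and -0.11. The nucleolar paralogues *Ddx21* and *Ddx50*, neighbours on chromosome 10, differed by 0.02 and -0.01. The remaining members were *Ddx47* at 0.07, *Ddx24* at 0.05 and *Ddx49* at -0.02.

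In some genes the animals split by replicate number in both genotypes. In *Ddx52* the signals were 10.5, 10.51, 9.88 and 9.88 in XEOSry, against 10.59, 10.67, 10.04 and 9.89 in XEZ2OSry. Replicates 1 and 2 were thus higher than replicates 3 and 4 in both genotypes, by far more than the genotypes differed. In 4 members, namely *Ddx1*, *Ddx50*, *Ddx52* and *Ddx58*, replicates 3 and 4 were below replicates 1 and 2 in both genotypes, and in 4 they were above (*Ddx24*, *Ddx54*, *Dhx37* and *Dhx38*). Of all 8324 genes tested, 11.5% showed the first split and 15.6% the second, so that the helicase shares are near those of all genes. The labels do not say what the replicate numbers stand for.

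*Ddx3x* is the X-linked member, a translation factor with a Y-linked copy, *Ddx3y*, and an autosomal retrogene, *D1Pas1*, that is active in spermatocytes. Among 285 X-linked genes tested, 277 were higher in XEOSry by mean and 8 lower, with a median difference of 0.36, whereas the median of 7648 autosomal genes was 0.06. Per animal, the mean of X-linked minus that of autosomal genes was 0.05, 0.30, 0.15 and -0.20 in XEOSry. In XEZ2OSry it was -0.29, -0.49, -0.37 and -0.16, so that XEOSry replicate 4 lay below XEZ2OSry replicate 4. *Ddx3x* (chrX:13280496-13293988) had signals of 8.54, 9.0, 8.43 and 8.03 in XEOSry, against 8.30, 8.24, 8.36 and 8.92 in XEZ2OSry. The genotypes overlapped fully, with the highest and the lowest animal both in XEOSry. Its difference of 0.05 (95% interval -0.45 to 0.54, adjusted p = 0.901) lay below the lower quartile of the X-linked genes, 0.23, but its interval included their median.

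*D1Pas1*, on chromosome 1 and outside the name rule, had signals of 9.52, 9.17, 9.37 and 9.95 in XEOSry, against 9.98, 10.36, 10.12 and 9.78 in XEZ2OSry. Only XEOSry replicate 4 reached above an XEZ2OSry animal, and the difference was -0.56 (SE 0.182, adjusted p = 0.130). The order of its XEOSry animals, with replicates 4 and 1 highest, was close to that of *Ddx25*. *Ddx3x* ran the other way, highest in XEOSry replicate 2 and lowest in XEOSry replicate 4. *Ddx3y*, which these males do not carry, was below detection throughout (lowest detection p-value 0.0759, highest 0.734), and its row read 9.06, 9.42, 9.01 and 8.65 in XEOSry, against 8.87, 8.66, 8.50 and 8.79 in XEZ2OSry. As in *Ddx3x*, the highest XEOSry animal was replicate 2 and the lowest replicate 4. *Ddx26b*, named *Ints6l* in RefSeq, is the other X-linked gene taken by symbol and was not detected on any array.

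**Figure D4:**
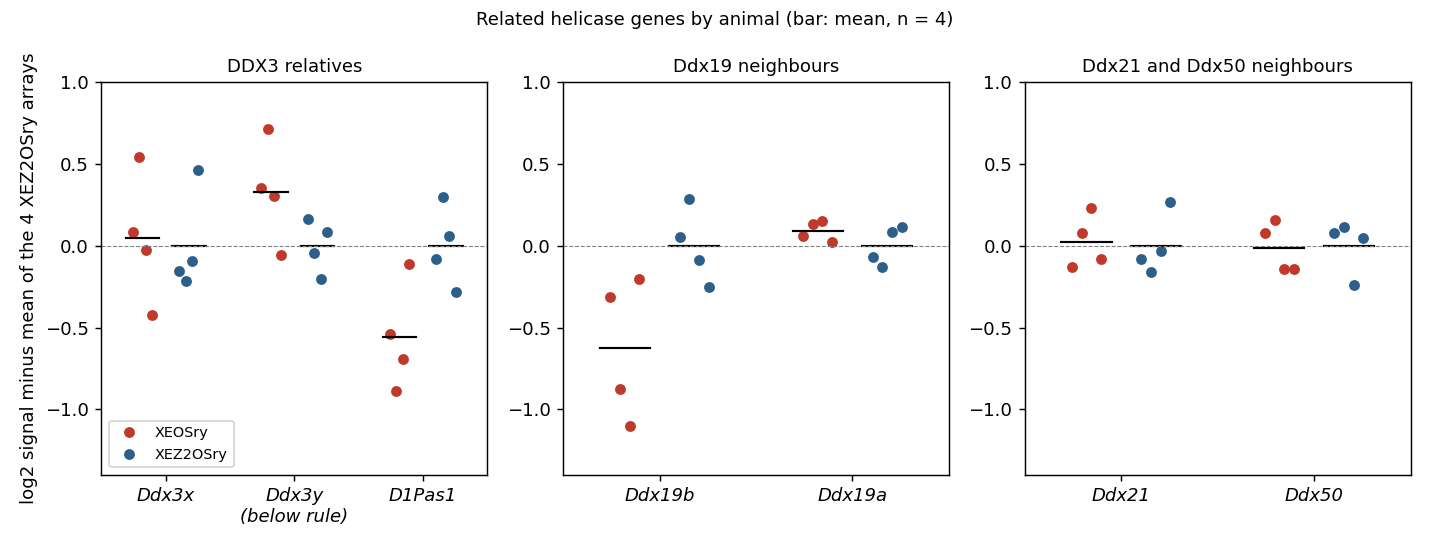
Signals of related helicase genes in single animals, as log2 signal minus the mean of the 4 XEZ2OSry arrays (vertical axis), XEOSry in red left of XEZ2OSry in blue, with a bar at each mean (n = 4). Ddx19b and D1Pas1 averaged 0.62 and 0.56 below XEZ2OSry in XEOSry, while Ddx3x, Ddx19a, Ddx21 and Ddx50 lay within 0.09 of it by mean, and Ddx3y was below the detection rule.

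Among the remaining members, *Ddx1*, a subunit of the tRNA ligase complex, and *Ddx20*, the Gemin3 subunit of the SMN complex, differed by -0.11 and 0.04. *Dhx32*, whose role is little known, had means of 10.91 ± 0.227 in XEOSry and 10.68 ± 0.154 in XEZ2OSry (SD, n = 4 each), a difference of 0.23 (adjusted p = 0.30), with 3 of the XEOSry animals above every XEZ2OSry animal. RNA helicases outside the name rule gave a like picture. Of 21 listed, 14 were analysed, none at an adjusted p under 0.05, with a median of 0.08. An unadjusted p under 0.05 was found for 1 higher gene and 2 lower ones, beside 12.9% and 12.0% of all genes tested. *D1Pas1* was the farthest below, and *Skiv2l2*, a helicase of the nuclear exosome, the farthest above (0.45, adjusted p = 0.290).

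The 14 members that were not analysed were *Ddx4*, *Ddx3y*, *Ddx5*, *Ddx17*, *Ddx26b*, *Ddx39*, *Ddx42*, *Ddx51*, *Ddx56*, *Ddx59*, *Dhx9*, *Dhx29*, *Dhx40* and *Dhx57*. Of these, 12 were detected on no array, and *Ddx17* and *Ddx39* on 1 to 3. A total of 9 had a mean signal above 6.65, that of the lowest analysed member (*Ddx58*), so that the detection p-value was not ordered by signal. *Ddx17*, for example, a splicing and transcription cofactor, read 10.86 to 11.07 in XEOSry and 10.41 to 11.04 in XEZ2OSry and was detected on 2 XEOSry arrays. The mean was higher in XEOSry for 9 of the 14 and lower for 5, and only *Ddx4* had an unadjusted p under 0.05 in the fit of all genes.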

How the data were processed

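Whole testis RNA of 4 XEOSry and 4 XEZ2OSry males, separate animals by their labels, was measured on 1 Illumina BeadChip each. The Methods give 3 XEOSry animals and the labels 4, and all were used. Quantile normalization was done by the authors, whose deposited log2 values per gene, from 5.72 to 15.48, are the main values here. They also deposited linear signal intensities, called non-normalized, with array medians of 105.5 to 106.3, so that these were already aligned. A deposited detection p-value comes with each gene and array. GenomeStudio 2011.1 is named in the submitters' processing notes, BeadStudio in the Methods.

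Genes with a detection p under 0.01 on at least 4 arrays (8324) were fitted with limma 3.58.1 in R 4.3.3, with a single term for genotype and two-sided p-values adjusted over all of them by Benjamini-Hochberg. A two-sided exact permutation p is given for *Dhx36*, the gene without overlap. Alternatives were other detection filters, normexp with offset 50, median centring, a replicate block, no variance moderation, the series table, and leaving out each animal. Symbols were placed on GRCm38.p6, all 44 helicase genes matching, 2 of them by synonym. For the 14 genes below the detection rule signals are given, with p-values from a fit of all genes and no fold change. The members and lists were chosen with earlier results of these data known. Genes are named where they are *Ddx4*, *Ddx25*, X-linked or without overlap, are among the 8 largest differences in each direction, or have the highest signal of their role. Others were named after their values were seen. Python 3.11.15, pandas 2.3.3, numpy 2.4.6 and matplotlib 3.10.9 were used. The number of arrays limits the precision.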

Additional observations from a re-analysis of the deposited data

Results flagged for a closer look

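In *Dhx15*, the homologue of a yeast spliceosome disassembly factor, XEOSry replicate 2 stood at a log2 signal of 10.70, while the other XEOSry animals lay between 10.59 and 10.61. The gap took up 0.883 of the whole range, over Dixon's 95% critical value for 4 samples. This was 1 of 40 groups examined, over 20 helicase genes, and chance marks about 1 in 20 groups.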

How the results depend on the processing

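The median of the general helicase genes stayed between -0.00 and 0.03 when single animals were left out, and the difference of *Ddx25* between -0.86 and -0.52. Without single animals, 0 to 1 helicase genes passed the adjusted threshold, 0 to 3 were higher and 2 to 5 lower at an unadjusted p under 0.05. For the unadjusted counts the shares of all genes were not counted in these settings. Against 2 higher genes in the main analysis, the replicate block left 1, and dropping variance moderation also 1. Direction changed without single animals in *Ddx3x* (range -0.12 to 0.20, with -0.12 without XEOSry replicate 2, -0.01 without XEZ2OSry replicate 1 and -0.03 without XEZ2OSry replicate 2), *Dhx37* (range -0.20 to 0.04, with 0.04 without XEOSry replicate 2), *Ddx52* (range -0.24 to 0.02, with 0.02 without XEZ2OSry replicate 2) and *Dhx15* (range -0.10 to 0.03, with 0.03 without XEZ2OSry replicate 4). The cause was not tested. Another 311 values of single genes kept direction and side of the threshold, and 2 came to pass it, those of *Dhx30* (-0.67 without XEOSry replicate 4) and *Dhx58* (-1.01 without XEZ2OSry replicate 4). Part of the 311 could not change direction. The detection filters, the replicate block and dropping variance moderation leave the fitted differences as they are, and the series table holds the same values. Over all genes, 5 passed the adjusted threshold in the main analysis, 1 each with detection on all 8 arrays, the block or no variance moderation, and 3 to 519 when single animals were left out. Same-numbered animals deviated with correlations of 0.426, -0.232, 0.327 and -0.421, and those of different number with -0.722 to 0.747, so that the numbers were not used as pairs. Precision is limited by 4 animals per genotype, by detection of only 30 of 44 genes, and by quantile normalization before deposit.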
